A study of Mus musculus with 18 samples.

Results

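The genes described here make or sense prostaglandins and leukotrienes, the lipid mediators that macrophages form from arachidonic acid. They are the 10 genes *Pla2g4a*, *Ptgs1*, *Ptgs2*, *Ptges*, *Hpgds*, *Tbxas1*, *Alox5*, *Alox5ap*, *Ltc4s* and *Ptger4*, taken from the table of gene counts by symbol, out of 56748 genes in that table. Arachidonic acid is cut from membrane phospholipids by a phospholipase and then enters either of a pair of branches. In the cyclooxygenase branch it is turned into an unstable endoperoxide, from which separate terminal synthases make prostaglandin E, prostaglandin D and thromboxane. In the lipoxygenase branch it is handed by a membrane protein to 5-lipoxygenase and becomes a leukotriene. In macrophages exposed to microbial products the inducible cyclooxygenase is the best known point of control, and prostaglandin E acts back on the same cells through its receptors.

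RNA was sequenced from cells of an immortalised mouse macrophage line in 18 libraries with 3 libraries in each of 6 groups. The control cells received nothing further. The TBHQ group was given 5 µM tert-butylhydroquinone, a phenolic antioxidant used as a food preservative, and was harvested at the end of its 4 h exposure. The LPS group was given lipopolysaccharide, a component of the bacterial outer membrane, at 0.1 µg/mL for 12 h, and the PIC group Poly (I:C), a synthetic mimic of double-stranded RNA, at 20 µg/mL for 12 h. The LPS+TBHQ and PIC+TBHQ groups had TBHQ for 4 h before 12 h of the stimulus. The study's methods call the replicates biological, and all come from a single cell line. For the sequencing experiment the methods do not state a vehicle in the wells without TBHQ. Nor do they state whether the LPS and PIC groups had a matching 4 h before the stimulus. A difference with TBHQ may therefore also hold the vehicle or this time, and these cannot be told apart. Control cells belong to the 12 h design, so TBHQ and control also differ in the time of harvest and these 2 differences cannot be told apart.

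Libraries held 14423390 to 18851626 counts on genes. A floor of 3 counts corresponds to 0.159 to 0.208 CPM in these libraries, a limit that covers counting error only. All 10 genes passed the filter on low counts and were among the 13691 genes tested, although *Tbxas1*, *Ltc4s* and *Ptgs1* had means of only 19.8, 15.4 and 30.0 counts per library. Levels are given as the deposited FPKM, which allow genes of different length to be compared. These equalled counts over gene length and library total times a constant of each library, 0.943 to 0.951 in the control and 1.11 to 1.12 with PIC, so that FPKM raised the PIC libraries against the control by 17.6% relative to the library total. Changes are given as the log2 fold change (log2FC) from edgeR's quasi-likelihood test on the raw counts, with the standard error (SE) taken from the spread of the replicates and the false discovery rate (FDR) over all genes tested. A gene was called at an FDR below 0.05. In cultures sequenced in bulk, a change in the share of cells that express a gene and a change in RNA per cell cannot be told apart.

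Of 10 macrophage genes 9 were tested, led by *Lyz2* with a mean of 4021 FPKM, and *Mertk*, the exception, had 0 to 5 counts. Several of the 10 lipid mediator genes are also high in mast cells, neutrophils or fibroblasts, so markers of these cells were read as well. Of 8 mast cell markers 6 had no count in any library, *Cpa3* had 0 to 5 counts, and *Hdc*, which stimulated macrophages can also make, gave nearly all of the list's summed level of 0.368 FPKM in the control, 2.13 with LPS and 4.99 with PIC. Of 8 neutrophil markers *S100a9*, *Ly6g* and *Ltf* were at 0 throughout, while *S100a8* led the list with 2.89 FPKM and the sum was 1.06 FPKM in the control, 4.13 with LPS and 6.21 with PIC. The 6 fibroblast markers summed to at most 0.122 FPKM and the 6 lymphocyte markers to at most 0.338 FPKM.

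In control cells the 10 genes spanned a wide range of levels. *Alox5ap* was the most abundant at 50.01 ± 0.944 FPKM (SD, n = 3), followed by *Pla2g4a* at 26.9 ± 0.489, *Hpgds* at 21.0 ± 0.708 and *Ptgs2* at 17.04 ± 0.835. The remaining 6 lay below 2 FPKM, in the order *Alox5*, *Ptges*, *Ltc4s*, *Ptger4*, *Ptgs1* and *Tbxas1*, from 1.75 ± 0.142 to 0.0768 ± 0.0273 FPKM. The libraries of *Ptges* and *Ltc4s* and those of *Ltc4s* and *Ptger4* overlapped in this order, and no other neighbours did. Resting cells thus held the transcripts for release of arachidonic acid, for the lipoxygenase partner protein and for prostaglandin D synthesis at high levels, with ranks among the 13691 tested genes of 1032 for *Alox5ap*, 2000 for *Pla2g4a* and 2593 for *Hpgds*. Stimulation changed the order at its top, where *Ptgs2* moved to the first place in all groups given a stimulus. The summed level of the 10 genes was 120.6 FPKM in the control, 414.7 with LPS and 1057 with PIC, of which *Ptgs2* took 14.1%, 78.5% and 91.0%. Without *Ptgs2* the sums were 103.6, 88.7 and 95.4 FPKM. These sums were not read over the library total, relative to which the FPKM raised the LPS libraries by 6.84% and the PIC libraries by 17.6% against the control.

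**Figure D1:**
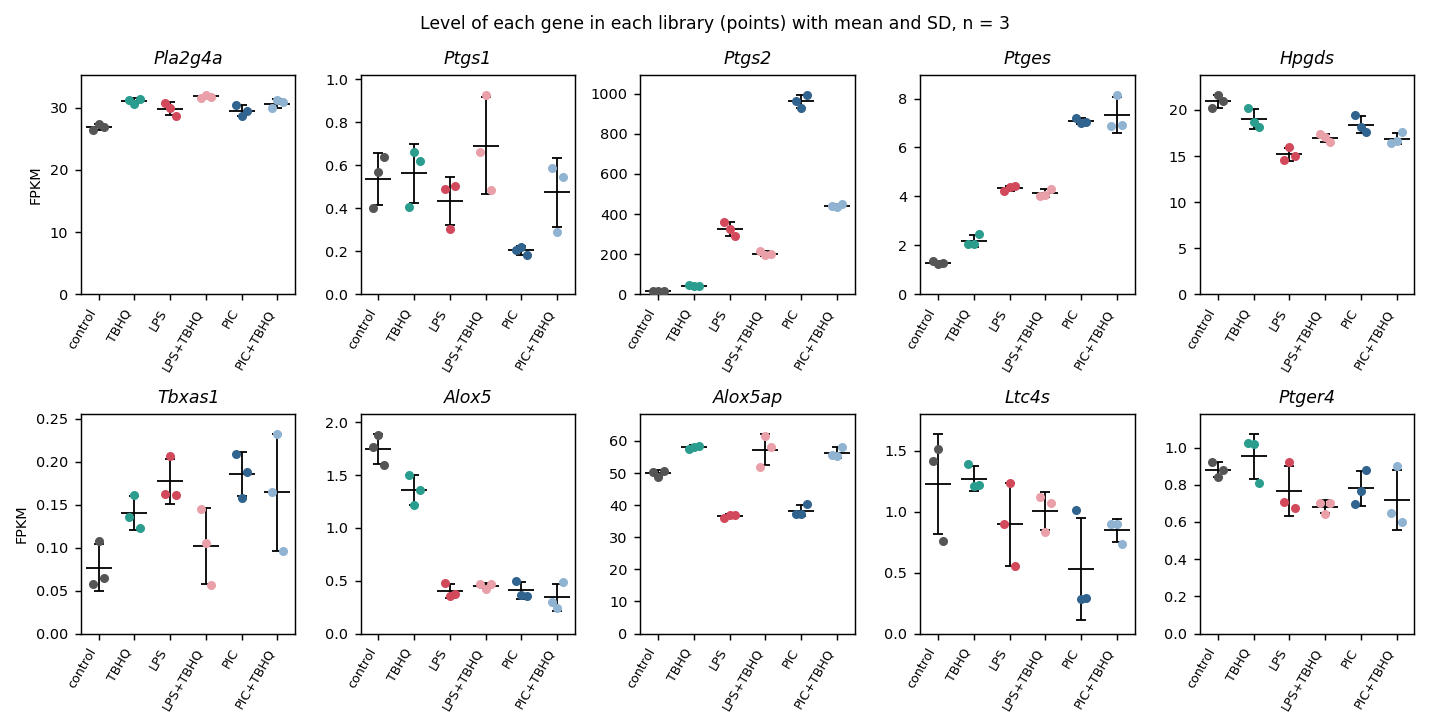
Each panel shows 1 gene, with FPKM on a linear vertical axis starting at 0 and the 6 groups along the horizontal axis; points are the 3 libraries of a group, and the black lines are their mean and SD. *Ptgs2* runs from 17.04 FPKM in the control to 962 with PIC, while *Alox5* falls from 1.75 to about 0.4 FPKM with either stimulus.

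Read against all genes tested, the calls among the 10 genes were as follows. With LPS 4 were higher than in the control and 3 lower, where 24.0% of all tested genes were higher and 24.1% lower. With PIC 4 were higher and 5 lower, against 28.6% and 30.1% of all tested genes, but with total counts as scaling *Pla2g4a*, among the 4, was called lower, as was *Ptger4*. With that scaling *Pla2g4a* was also no longer called with LPS. The median log2FC of the 10 genes was -0.26 with LPS and -0.19 with PIC, beside -0.0040 and -0.015 over all genes tested. The study's own threshold, an FDR below 0.01 with a |log2FC| above 2, was passed with LPS by *Ptgs2* upward and *Alox5* downward, where 1.34% and 0.292% of all tested genes passed. With PIC it was passed by *Ptgs2* and *Ptges* upward and by *Alox5* downward, against 2.70% and 0.869% of all tested genes. These comparisons share the control libraries.

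After 4 h of TBHQ alone 4 of the 10 genes were higher and 1 lower, beside 14.2% and 14.8% of all tested genes. Between LPS+TBHQ and LPS 2 were higher with TBHQ and 1 lower, beside 11.7% and 12.2% of all tested genes. TBHQ before PIC left 2 of them above PIC alone and 1 below it, beside 15.8% and 15.5% of all tested genes. PIC compared with LPS gave 3 higher and 1 lower, beside 14.9% and 12.8%, and PIC+TBHQ compared with LPS+TBHQ gave 2 higher, *Ptgs2* and *Ptges*, beside 11.9% higher and 8.39% lower over all tested genes. The test of whether the TBHQ effect differed between the stimuli called 2 of the 10 genes, *Ptgs2* and *Hpgds*, both with a lower value in PIC, where 0.825% of all tested genes had a higher and 1.01% a lower one. The call of *Hpgds* was lost without any 1 of 6 libraries, with total counts and in limma with either pseudocount, which left *Ptgs2* alone.

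**Figure D2:**
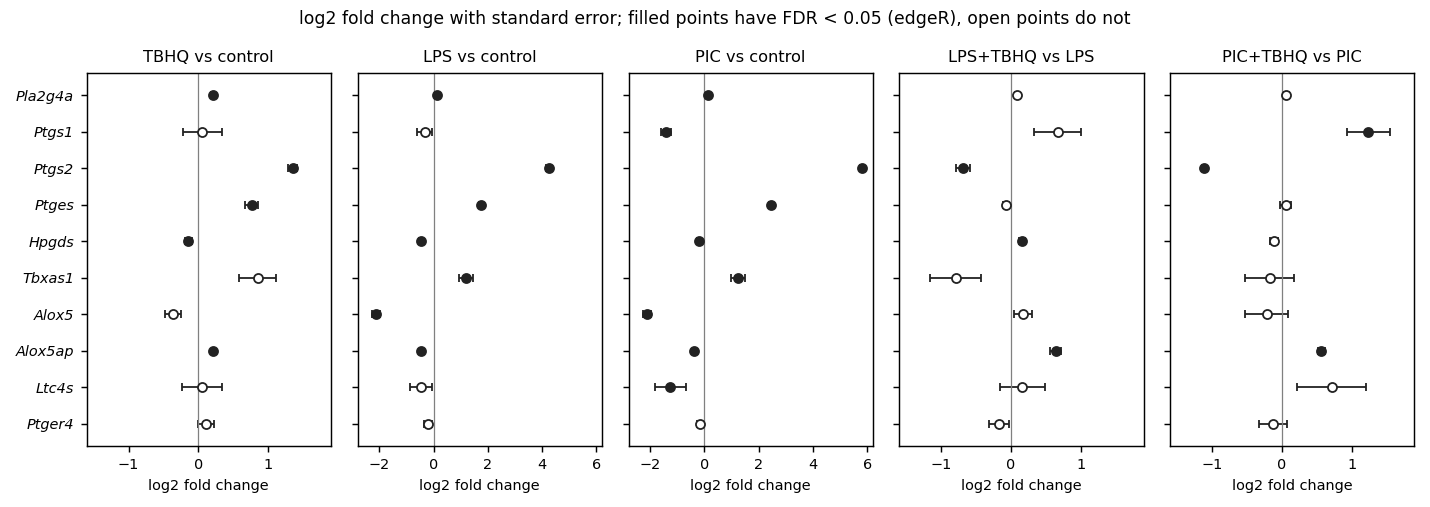
Each panel shows 1 comparison, with the log2 fold change on the horizontal axis and the 10 genes in order of their role on the vertical axis; horizontal bars are the SE from 3 libraries a group, filled points have an FDR below 0.05 and open points do not. *Ptgs2* stands at 4.25 with LPS and 5.80 with PIC, and at -0.69 and -1.11 when TBHQ preceded the stimulus; panels with *Ptgs2* above 4 have a wider scale than the others.

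*Pla2g4a* encodes cytosolic phospholipase A of group IVA, the enzyme that releases arachidonic acid from membranes. Its level was 26.4, 27.4 and 26.9 FPKM in the control libraries, 30.7, 30.0 and 28.7 with LPS, 30.4, 28.6 and 29.5 with PIC, and 31.3, 30.6 and 31.4 with TBHQ. In FPKM all these treated libraries lay above all control libraries by a small margin, but over the library total all PIC libraries, at 175, 164 and 170 CPM, lay below all control libraries, at 177, 185 and 182, and those with LPS overlapped the control. The log2FC against the control was 0.21 with TBHQ (SE 0.019, FDR = 3.04e-05), 0.14 with LPS (SE 0.032, FDR = 0.00154) and 0.12 with PIC (SE 0.030, FDR = 0.00561). The direction with PIC depended on the scaling of the libraries. Under scaling to the total count, which moved the median of all tested genes by -0.217 for PIC against control, it was -0.098 (FDR = 0.0200), and the rise with LPS was no longer called (0.054, FDR = 0.232). LPS+TBHQ differed from LPS by 0.092 (SE 0.029, FDR = 0.0619), and this FDR was 0.0467 in DESeq2, 0.0165 with total counts, and 0.0333 and 0.0344 in limma on FPKM. PIC+TBHQ differed from PIC by 0.065 (SE 0.031, FDR = 0.185, and 0.00431 with total counts). PIC differed from LPS by -0.023 (SE 0.038, FDR = 0.698) and PIC+TBHQ from LPS+TBHQ by -0.050 (SE 0.018, FDR = 0.381), and with total counts these were called lower, at -0.15 (FDR = 0.00127) and -0.14 (FDR = 0.00536).

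*Ptgs2* (ENSMUSG00000032487, chromosome 1, 149975782 to 149983978 in the positions of the authors' files) encodes the inducible cyclooxygenase. It measured 17.99, 16.7 and 16.4 FPKM in the control libraries, 359, 328 and 291 with LPS, and 963, 928 and 995 with PIC. The TBHQ libraries measured 46.3, 41.2 and 43.3 FPKM, those of LPS+TBHQ 215, 194 and 199, and those of PIC+TBHQ 438, 437 and 449. The 6 groups did not overlap, and from low to high they stood in the order control, TBHQ, LPS+TBHQ, LPS, PIC+TBHQ and PIC. Among all tested genes *Ptgs2* had rank 3091 in the control, 142 with LPS and 42 with PIC.

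Both stimuli raised *Ptgs2*, by a log2FC of 4.25 with LPS (SE 0.095, FDR = 5.39e-36), or 19.04-fold, and 5.80 with PIC (SE 0.050, FDR = 1.05e-39), or 55.8-fold. Set directly against LPS, PIC gave 1.55 (SE 0.090, FDR = 4.17e-24), or 2.93-fold. TBHQ alone was associated with a level 2.56-fold that of the control, a log2FC of 1.35 (SE 0.064, FDR = 2.25e-20), in cells harvested at 4 h. In stimulated cells TBHQ went with a lower level, a log2FC of -0.69 for LPS+TBHQ against LPS (SE 0.097, FDR = 4.48e-14) and of -1.11 for PIC+TBHQ against PIC (SE 0.032, FDR = 7.51e-20). Of the difference in FPKM between stimulated and control cells, 60.03% was left with LPS+TBHQ and 44.9% with PIC+TBHQ. *Ptgs2* after TBHQ remained higher with PIC than with LPS, by 1.13 (SE 0.047, FDR = 7.68e-20). All these calls held in each of the 18 fits that left out 1 library, although most of these fits dropped a library of neither group compared.

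*Ptgs1* encodes the constitutive cyclooxygenase, and its transcript was scarce in these cells. The control libraries had 24, 36 and 42 counts, the LPS libraries 27, 17 and 28, and the PIC libraries 11, 12 and 12. With PIC+TBHQ there were 35, 16 and 34 counts, each above the PIC libraries. *Ptgs1* was lower with PIC than in the control, with a log2FC of -1.42 (SE 0.20, FDR = 0.000622), and higher with PIC+TBHQ than with PIC, by 1.24 (SE 0.31, FDR = 0.00687). Both calls held in each of the 18 fits without 1 library and in the 6 other settings that kept the gene, with FDRs of up to 0.00573 and 0.0490. PIC was also below LPS, with a log2FC of -1.09 (SE 0.23, FDR = 0.0225), a call that was lost without LPS replicate 1 (-0.997, FDR = 0.0776), LPS replicate 3 (-0.97, FDR = 0.0902), PIC replicate 1 (-1.10, FDR = 0.0513) or PIC replicate 3 (-1.01, FDR = 0.0766). LPS against control gave -0.32 (SE 0.29, FDR = 0.404) and LPS+TBHQ against LPS 0.67 (SE 0.34, FDR = 0.0976), which became 0.87 with FDR = 0.0432 without LPS+TBHQ replicate 3.

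The ratio of *Ptgs2* to *Ptgs1* FPKM within a library does not depend on how libraries are scaled. It was 44.7, 29.3 and 25.7 in the control libraries, 733, 1075 and 578 with LPS, and 4640, 4173 and 5454 with PIC. With TBHQ alone it was 113.6, 62.3 and 69.8, above every control library. After TBHQ it was 325, 208 and 410 with LPS and 747, 1507 and 823 with PIC. The libraries with TBHQ and a stimulus lay below those with the same stimulus alone. *Ptgs1* had 11 to 60 counts a library, and what set the spread of these ratios was not tested.

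*Ptges* encodes the inducible microsomal prostaglandin E synthase, which works downstream of the cyclooxygenases. It measured 1.36, 1.23 and 1.28 FPKM in the control libraries, 2.06, 2.04 and 2.48 with TBHQ, 4.21, 4.38 and 4.41 with LPS, and 7.21, 7.01 and 7.03 with PIC. These 4 groups did not overlap. The log2FC against the control was 0.76 with TBHQ (SE 0.097, FDR = 4.07e-06), 1.74 with LPS (SE 0.046, FDR = 6.23e-16) and 2.44 with PIC (SE 0.042, FDR = 2.75e-21), and PIC exceeded LPS by 0.70 (SE 0.027, FDR = 6.07e-08). With LPS+TBHQ it measured 4.02, 4.07 and 4.31 FPKM and with PIC+TBHQ 6.89, 8.16 and 6.90, both groups overlapping the stimulus alone, although over the library total the PIC+TBHQ libraries lay above those with PIC. No change with TBHQ was called, at -0.070 for LPS (SE 0.039, FDR = 0.649) and 0.056 for PIC (SE 0.081, FDR = 0.652). PIC+TBHQ stayed above LPS+TBHQ by 0.82 (SE 0.085, FDR = 1.18e-09). On limma's log2(FPKM + 1) scale, which understates the change of low genes, the rise with TBHQ alone was 0.48.

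As *Ptgs2* was lower in stimulated cells with TBHQ and *Ptges* was not called, the proportion of the 2 transcripts shifted. The ratio of *Ptgs2* to *Ptges* FPKM within a library averaged 13.2 ± 0.332 in control cells and 20.1 ± 2.52 in the TBHQ group (SD, n = 3). LPS alone gave 75.4 ± 9.61, which became 49.1 ± 3.91 when TBHQ came first, and PIC alone gave 135.8 ± 5.02, which became 60.7 ± 6.30. Each library with LPS+TBHQ was below each with LPS alone, and the same was true for PIC.

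*Hpgds* encodes the hematopoietic prostaglandin D synthase, which makes prostaglandin D. The control libraries measured 20.2, 21.7 and 21.0 FPKM, those with LPS 14.6, 15.9 and 15.04, and those with PIC 19.4, 18.2 and 17.6. LPS+TBHQ gave 17.4, 17.1 and 16.5 FPKM, all above LPS alone, and PIC+TBHQ gave 16.5, 16.6 and 17.6. In FPKM the LPS libraries lay below those with PIC, over the library total these overlapped, and after TBHQ the libraries of the 2 stimuli overlapped. The log2FC of *Hpgds* was -0.47 with LPS (SE 0.049, FDR = 2.08e-10) and -0.21 with PIC (SE 0.051, FDR = 0.000292), and it was higher with PIC than with LPS by 0.27 (SE 0.059, FDR = 5.32e-05). With total counts in place of TMM scaling the change with PIC was -0.42 and the difference between PIC and LPS 0.14.

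The changes of *Hpgds* with TBHQ were smaller, and their calls near the threshold came and went with single libraries while the direction stayed the same in every setting. TBHQ alone gave 20.2, 18.7 and 18.2 FPKM, a log2FC of -0.14 (SE 0.055, FDR = 0.0186), which was not called without control replicate 2 (-0.12, FDR = 0.101), TBHQ replicate 2 (-0.13, FDR = 0.0700) or TBHQ replicate 3 (-0.11, FDR = 0.128). LPS+TBHQ was above LPS by 0.16 (SE 0.045, FDR = 0.0137), which was not called without LPS replicate 1 (0.13, FDR = 0.0957) or LPS+TBHQ replicate 1 (0.14, FDR = 0.0587). PIC+TBHQ differed from PIC by -0.11 (SE 0.053, FDR = 0.0790), but was called without LPS replicate 2 (-0.13, FDR = 0.0380), LPS replicate 3 (-0.13, FDR = 0.0461), PIC replicate 3 (-0.16, FDR = 0.0209) or PIC+TBHQ replicate 3 (-0.15, FDR = 0.0401). It was also called with RLE size factors (-0.13, FDR = 0.0420) and among genes with a mean of at least 50 counts (-0.13, FDR = 0.0325), and with total counts it was -0.041 (FDR = 0.558). The ratio of *Ptges* to *Hpgds* FPKM within a library, which sets the synthases of prostaglandin E and prostaglandin D side by side, was 0.0617 ± 0.00513 in control cells, 0.285 ± 0.00981 after LPS and 0.385 ± 0.0138 after PIC (SD, n = 3). With TBHQ it was 0.116 ± 0.0182 alone, 0.243 ± 0.0153 with LPS and 0.434 ± 0.0519 with PIC.

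*Tbxas1* encodes thromboxane A synthase and was the least abundant of the 10 genes in the control. It had 8, 16 and 10 counts in the control libraries, 21, 27 and 21 with LPS, and 26, 20 and 29 with PIC, so that the stimulated libraries lay above the control. The log2FC was 1.18 with LPS (SE 0.26, FDR = 0.00864) and 1.24 with PIC (SE 0.26, FDR = 0.00425). TBHQ alone gave 21, 24 and 19 counts, a log2FC of 0.85 (SE 0.26, FDR = 0.0927). LPS+TBHQ gave 22, 16 and 9 counts, a difference from LPS of -0.79 (SE 0.36, FDR = 0.104), or -1.13 with FDR = 0.0467 without LPS+TBHQ replicate 1. PIC+TBHQ gave 23, 30 and 14 counts, a difference from PIC of -0.18 (SE 0.35, FDR = 0.732). Against the control PIC+TBHQ was higher by 1.06 (SE 0.41, FDR = 0.0171), although the libraries overlapped. In the authors' files the start of *Tbxas1* overlaps *Hipk2*, a gene on the opposite strand with 1647 to 3808 counts. The study's methods call the libraries strand-specific, while the sample records speak of directional and non-directional libraries. The strand setting of the counting is not given in either, so the few reads of *Tbxas1* are uncertain.

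*Alox5* (ENSMUSG00000025701, chromosome 6, 116387038 to 116438139 in the authors' files) encodes 5-lipoxygenase, the enzyme that opens the leukotriene branch. It had 111, 126 and 111 counts in the control libraries, 28, 21 and 22 with LPS, and 28, 21 and 25 with PIC. Both stimulated groups lay far below the control and overlapped each other. The log2FC was -2.12 with LPS (SE 0.14, FDR = 1.13e-10) and -2.12 with PIC (SE 0.16, FDR = 5.55e-11), so that 23.1% and 23.4% of the control FPKM remained. PIC and LPS differed by 0.00052 (SE 0.19, FDR = 0.999).

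No change of *Alox5* with TBHQ was called. With TBHQ alone there were 105, 82 and 95 counts, each below the control libraries, but the log2FC of -0.36 (SE 0.11) was not called (FDR = 0.112). LPS+TBHQ gave 32, 29 and 34 counts and PIC+TBHQ 19, 14 and 32, with differences from the stimulus alone of 0.17 (SE 0.13, FDR = 0.697) and -0.22 (SE 0.31, FDR = 0.584). At 14 to 34 counts a library in these groups, small differences were not detectable.

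*Alox5ap* encodes FLAP, the membrane protein that presents arachidonic acid to 5-lipoxygenase. It measured 50.4, 48.9 and 50.7 FPKM in the control libraries, 36.1, 37.1 and 37.0 with LPS, and 37.2, 37.2 and 40.4 with PIC. The TBHQ libraries measured 57.4, 58.2 and 58.6 FPKM, those of LPS+TBHQ 52.0, 61.7 and 58.3, and those of PIC+TBHQ 55.7, 55.3 and 58.2. Both stimuli alone were lowest. All 9 libraries given TBHQ lay above the control in FPKM, but over the library total those with PIC+TBHQ, at 74.9, 74.7 and 78.4 CPM, and LPS+TBHQ replicate 1, at 74.2, overlapped the control at 75.3, 73.5 and 76.3.

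The log2FC of *Alox5ap* was -0.45 with LPS (SE 0.021, FDR = 7.36e-09), -0.40 with PIC (SE 0.041, FDR = 5.25e-08) and, with TBHQ alone, 0.21 (SE 0.017, FDR = 0.00135). LPS+TBHQ was above LPS by 0.64 (SE 0.074, FDR = 5.97e-12), or 1.56-fold, and PIC+TBHQ above PIC by 0.57 (SE 0.045, FDR = 1.03e-10), or 1.48-fold. The TBHQ effect in PIC minus that in LPS was -0.073 (SE 0.087, FDR = 0.734). With total counts the change with PIC was -0.62. The ratio of *Alox5ap* to *Alox5* FPKM within a library averaged 28.8 ± 2.85 in control cells and 43.0 ± 4.70 with TBHQ alone (SD, n = 3), where each library lay above every control library. LPS raised it to 92.7 ± 15.3, or 126.7 ± 17.01 after TBHQ, and PIC to 96.0 ± 19.4, or 178 ± 55.5 after TBHQ. The partner protein's transcript thus outnumbered that of the enzyme in every library, with the highest means where a stimulus followed TBHQ.

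*Ltc4s* encodes leukotriene C synthase, which joins glutathione to the leukotriene. It had 22, 25 and 13 counts in the control libraries, 13, 18 and 8 with LPS, and 14, 4 and 5 with PIC. The TBHQ libraries had 24, 20 and 21 counts, those of LPS+TBHQ 19, 14 and 19, and those of PIC+TBHQ 14, 13 and 12. A single comparison was called, PIC against control at -1.25 (SE 0.56, FDR = 0.0122), although PIC replicate 1 lay within the control range. Without that library it was -2.06 (FDR = 0.000745), and the call was lost without control replicate 2 (-1.07, FDR = 0.0633), PIC replicate 2 (-0.97, FDR = 0.0779) or PIC replicate 3 (-0.92, FDR = 0.0973). PIC replicate 1 also decided 2 other comparisons. PIC against LPS was -0.80 (FDR = 0.209) with it and -1.62 (FDR = 0.0247) without it, and PIC+TBHQ against PIC was 0.72 (FDR = 0.255) with it and 1.52 (FDR = 0.0335) without it. In the authors' files *Gm26542*, a gene on the opposite strand with 1 to 10 counts, overlaps *Ltc4s*. The counts of *Ltc4s* thus carry the same uncertainty as those of *Tbxas1*.

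*Ptger4* encodes the EP4 receptor, through which prostaglandin E raises cyclic AMP. It had 94, 91 and 99 counts in the control libraries and 63 to 116 counts over all libraries, and only the LPS+TBHQ libraries, at 78, 71 and 82 counts, lay apart from the control in FPKM, while over the library total those with PIC and PIC+TBHQ lay below it as well. The log2FC was -0.20 with LPS (SE 0.14, FDR = 0.332) and -0.18 with PIC (SE 0.10, FDR = 0.358), and with total counts the latter was -0.40 (FDR = 0.0336). With TBHQ it differed from LPS alone by -0.17 (SE 0.14, FDR = 0.533) and from PIC alone by -0.13 (SE 0.20, FDR = 0.614). *Ttc33*, on the opposite strand with 361 to 513 counts, overlaps the end of *Ptger4* in the authors' files, so its counts carry the same uncertainty as those of *Tbxas1*.

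Other genes of the pathway were read from 5 lists of release and reacylation, prostanoid, leukotriene, transport and receptor genes, of which 85 genes had a symbol of their own in the files and 48 of these were tested. *Dpep2*, a symbol that 2 genes share, was left out. With LPS 17 of the 48 rose and 15 fell, beside 24.0% and 24.1% of all tested genes. With PIC 16 rose and 21 fell, beside 28.6% and 30.1%, and with TBHQ alone 11 rose and 8 fell, beside 14.2% and 14.8%. In LPS+TBHQ against LPS 15 were higher and 3 lower, beside 11.7% and 12.2%, and in PIC+TBHQ against PIC 20 were higher and 5 lower, beside 15.8% and 15.5%. The median log2FC of the 48 in these comparisons was 0.071 and 0.148, beside 0.0023 and 0.0089 over all tested genes. Named here are the 21 with a called |log2FC| above 1 in 1 of the 8 comparisons given above or a mean of at least 50 FPKM.

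Beside *Pla2g4a*, the secreted phospholipase *Pla2g5* rose by 1.09 with LPS (FDR = 6.83e-09) and 1.79 with PIC (FDR = 3.81e-15). *Acsl4* and *Acsl1*, which activate fatty acids for return to membranes, rose by 0.74 (FDR = 1.84e-18) and 1.07 (FDR = 5.15e-21) with PIC. With LPS they rose by 0.48 (FDR = 4.96e-13) and 0.40 (FDR = 5.61e-09). The diacylglycerol lipase *Daglb* changed by -1.37 with PIC (FDR = 1.85e-15) and -0.83 with LPS (FDR = 4.01e-10). *Anxa1*, known as an inhibitor of phospholipase activity, was lower with LPS+TBHQ than with LPS, at -0.41 (FDR = 1.2e-10), and with PIC+TBHQ than with PIC, at -0.43 (FDR = 2.53e-11). Against the control it changed by -0.20 with LPS (FDR = 2.9e-05) and -0.16 with PIC (FDR = 0.000402). *Pla2g7* had a mean of only 4.28 counts and was highest with PIC+TBHQ, at 0.275 FPKM.

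Around the cyclooxygenases, the cytosolic prostaglandin E synthase *Ptges3* was abundant at a mean of 87.3 FPKM. It changed by -0.27 with LPS (FDR = 2.46e-05) and by -0.22 with PIC (FDR = 0.000369), although the PIC libraries overlapped the control. *Cbr3* was higher with LPS+TBHQ than with LPS by 1.24 (FDR = 3.37e-12) and with PIC+TBHQ than with PIC by 1.47 (FDR = 1.3e-13), and *Akr1b8* by 1.04 (FDR = 6.72e-21) and 1.15 (FDR = 1.21e-21). *Akr1b7*, with a mean of only 6.50 counts, was at 0.817 ± 0.134 FPKM (SD, n = 3) in the control and 0.139 ± 0.0917 with TBHQ alone. It was at 0.455 ± 0.0649 with LPS and 0.221 ± 0.104 with PIC.

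Around *Ltc4s*, its relative *Mgst2*, which can also form leukotriene C, was at 6.48 FPKM in the control and changed by -0.29 with LPS (FDR = 0.00340) and by -1.004 with PIC (FDR = 4.21e-12). It was higher with LPS+TBHQ than with LPS by 1.24 (FDR = 2.79e-15) and with PIC+TBHQ than with PIC by 1.505 (FDR = 2.6e-16), which put it above the control by 0.95 (FDR = 3.91e-13) and 0.50 (FDR = 9.5e-07). *Mgst3* changed with LPS by -1.16 (FDR = 5.79e-12) and with PIC by -1.21 (FDR = 1.24e-12). *Gpx4*, a lipid peroxide reductase, changed with LPS by -0.41 (FDR = 7.34e-10), with PIC by -0.50 (FDR = 4.52e-12) and with TBHQ alone by -0.29 (FDR = 1.88e-06). *Cotl1*, a binding partner of 5-lipoxygenase, had a mean of 130.7 FPKM. The exporter *Abcc1*, which carries leukotriene C out of cells, rose with TBHQ alone by 1.08 (FDR = 7.25e-23), with LPS by 1.03 (FDR = 2.88e-23) and with PIC by 1.18 (FDR = 2.15e-25).

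Among the receptors, *Ptger2*, which shares prostaglandin E with *Ptger4*, rose by 1.40 with LPS (FDR = 1.8e-05) and 1.84 with PIC (FDR = 3.56e-08), and the prostacyclin receptor *Ptgir* by 1.00 (FDR = 7.01e-16) and 1.15 (FDR = 5.48e-18). The leukotriene receptor *Cysltr1* changed by -1.68 with LPS (FDR = 3.08e-11), -1.89 with PIC (FDR = 1.33e-12) and -1.15 with TBHQ alone (FDR = 1.1e-07). *Pparg* changed by -1.01 with LPS (FDR = 0.00234) and -1.92 with PIC (FDR = 1.3e-06). *Gpr17*, with a mean of 18.1 counts over all libraries, rose by 1.25 with LPS (FDR = 0.0120) and 1.24 with PIC (FDR = 0.00930). *Fpr2*, at most 0.101 FPKM in a control library, had a mean of 0.793 with LPS and 0.953 with PIC.

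Genes with the most similar pattern were taken as the 3 with the highest Pearson correlation of log2 CPM with each member over the 18 libraries, among 10451 genes with a mean of at least 50 counts. The libraries share 6 conditions, so that a few groups set each value, and nothing follows from it about common control. For *Ptgs2* they were *Phlda1* (r = 0.999), *Kctd12* (r = 0.996) and *Tnf* (r = 0.995), and for *Ptges* they were *Ehd1* (r = 0.991), *Znrf1* (r = 0.989) and *Stx11* (r = 0.988). For *Alox5* they were *Oxct1*, *Arl6ip1* and *Shcbp1* (r = 0.967 to 0.971), and for *Alox5ap* *Ssr1*, *Coro1c* and *Limd1* (r = 0.959 to 0.967). For *Hpgds* they were *mt-Nd1*, *Tm9sf3* and *Zfp91* (r = 0.876 to 0.928), and for *Pla2g4a* *Gclm*, *Psmd5* and *Zscan29* (r = 0.886 to 0.905). For *Ptgs1* they were *Thap7*, *Lrrc45* and *Nsun3* (r = 0.871 to 0.897), for *Ltc4s* *Dph5*, *Fam120c* and *Zfp608* (r = 0.822 to 0.843), for *Ptger4* *Cd2ap*, *Ap5m1* and *Dpp8* (r = 0.805 to 0.834) and for *Tbxas1* *Wdr44*, *Ccnk* and *Mitf* (r = 0.781 to 0.808).

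Promoter windows from RefSeq (GRCm38.p6), from 250 bases before to 50 after the start of a gene, were at hand for 9 of the 10 genes, with 2 windows for *Pla2g4a*, and none for *Alox5ap*. They were searched on both strands, as were all 32851 windows of the same table. The motifs were kB (GGNNNTTCC and GGNNNTCCC), CRE (TGACGTCA), C/EBP (TTGCNNAA), ISRE-type (GAAANNGAA), ARE (TGACNNNGC) and Egr (GCGNGGGCG), with the shorter PU.1-type, AP-1, E-box and TATA. A match is a description of these letters and not a site in use. The PU.1-type letters GAGGAA were in the windows of 7 genes, *Ptgs1*, *Ptgs2*, *Ptges*, *Hpgds*, *Tbxas1*, *Alox5* and *Ltc4s*, and in 28.3% of all windows. The C/EBP letters were in those of *Ptgs2* and *Hpgds* and in 10.8% of all windows. A kB match was in the windows of *Ptgs2* and *Ltc4s*, where 18.6% of all windows held GGNNNTCCC and 18.5% GGNNNTTCC. The E-box CACGTG was in *Ptgs2* and in 7.15% of all windows. The AP-1 letters TGANTCA were in *Tbxas1* and in 7.81% of all windows, and the TATA letters TATAAA in *Tbxas1* and in 1 of the windows of *Pla2g4a*, against 13.6% of all windows. CRE, ISRE-type, ARE and Egr letters were in 1.79%, 8.56%, 12.4% and 5.55% of all windows and in none of these genes.

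Shown here are the 250 bases before the start of the 3 genes that passed the study's threshold, the induced *Ptgs2* and *Ptges* and the lowered *Alox5*, each read along its own strand, with motif matches in capitals. For *Ptgs2*, at chr1:150099781-150100030 on the plus strand, they mark from left to right the PU.1-type match, the C/EBP match 69 bases before the start, which reads on both strands, and the kB match 22 bases before it. For *Ptges*, at chr2:30903298-30903547 on the minus strand, and for *Alox5*, at chr6:116461179-116461428 on the minus strand, they mark the PU.1-type match.
Ptgs2: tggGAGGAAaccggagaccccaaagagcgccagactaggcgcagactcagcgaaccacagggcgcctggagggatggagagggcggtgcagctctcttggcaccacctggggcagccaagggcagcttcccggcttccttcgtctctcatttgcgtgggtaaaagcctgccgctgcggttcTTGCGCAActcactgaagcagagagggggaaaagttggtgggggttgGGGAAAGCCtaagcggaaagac
Ptges: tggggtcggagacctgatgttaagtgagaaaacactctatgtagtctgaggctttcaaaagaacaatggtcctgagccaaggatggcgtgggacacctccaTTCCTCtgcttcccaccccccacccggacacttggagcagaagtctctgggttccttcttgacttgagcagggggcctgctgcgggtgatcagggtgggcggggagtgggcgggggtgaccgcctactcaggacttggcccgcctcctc
Alox5: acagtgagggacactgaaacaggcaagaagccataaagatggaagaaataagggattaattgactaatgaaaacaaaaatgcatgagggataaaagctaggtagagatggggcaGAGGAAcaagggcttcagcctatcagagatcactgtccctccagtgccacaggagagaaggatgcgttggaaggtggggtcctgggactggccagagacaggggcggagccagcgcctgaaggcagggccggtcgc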

How the data were processed

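Of the deposited tables, the counts are not normalized, and the FPKM were scaled by the authors. In each library the deposited FPKM equalled counts over gene length and library total times 1 constant, which differed between groups, from 0.943 to 0.951 in the control to 1.11 to 1.12 with PIC. Members were therefore also read over the library total. The submitters' processing notes name HISAT2 2.0.5, StringTie 1.3.3b, featureCounts 1.5.0-p3 and both GRCm38 and mm39. Gene positions are those of the authors' files, which differ from GRCm38, while promoters are those of GRCm38.p6. Genes were matched by symbol.

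Counts were tested in R 4.3.3 with edgeR 4.0.16 (filterByExpr, TMM, glmQLFit and glmQLFTest) in 1 fit over 18 libraries with 1 coefficient per group, with the Benjamini-Hochberg adjustment over all 13691 genes. The fit was tested on simulated data. SEs come from log2 CPM with a prior count of 2. Alternatives were DESeq2 1.42.0, limma 3.58.1 on log2(FPKM + 1) and log2(FPKM + 0.1) for genes with a mean of at least 1 FPKM, other scalings, filters and thresholds, the groups compared alone, the replicate number as a factor, and leaving out each library. Tables and figures were made in Python 3.11.15 with pandas 2.3.3 and matplotlib 3.10.9. The 10 genes and the gene lists were chosen with earlier results of these data known. Pathway genes were named by a called |log2FC| above 1 in 1 of 8 comparisons or a mean of at least 50 FPKM. Of the 10 genes, *Hpgds* and *Tbxas1* shared 0.393% and 0.515% of their 50-base transcript words with other genes in the GENCODE annotation of GRCm38, and the others 0%. Within groups, replicate counts varied more than counting error alone gives (chi-square per degree of freedom 2.49 to 4.61). Protein sequences and protein or lipid measurements were not used here.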

Additional observations from a re-analysis of the deposited data

Results flagged for a closer look

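A difference of the TBHQ effect between the stimuli was called in 2 of the 10 genes, by the test of the difference itself in edgeR. Of all tested genes 0.825% were called with a higher and 1.01% with a lower value in PIC. For *Ptgs2* the TBHQ effect in PIC minus that in LPS was -0.42 on the log2 scale (SE 0.10, FDR = 0.000135), from -1.11 with PIC and -0.69 with LPS. The level with TBHQ thus lay further below the stimulus alone in PIC. The call of this difference held without each of the 18 libraries, with an FDR of up to 0.0255 over all alternatives. For *Hpgds* the difference was -0.27 (SE 0.070, FDR = 0.0288), from -0.11 with PIC and 0.16 with LPS. The difference kept its direction in every setting, at -0.32 to -0.23, but its call did not hold. It was not called without LPS replicate 1 (FDR = 0.0832), PIC replicate 1 (FDR = 0.0723), LPS+TBHQ replicate 1 (FDR = 0.0813), LPS+TBHQ replicate 2 (FDR = 0.0710), PIC+TBHQ replicate 1 (FDR = 0.0862) or PIC+TBHQ replicate 2 (FDR = 0.0650), where it measured -0.27 to -0.24. Nor was it called with total counts as scaling (-0.23, FDR = 0.0776) or in limma on log2(FPKM + 1) (-0.27, FDR = 0.0554) and log2(FPKM + 0.1) (-0.28, FDR = 0.0568).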

How the results depend on the processing

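Of 2056 values of the log2FC of single genes under other settings or without 1 library, 1973 kept their direction and their side of FDR 0.05, 22 were no longer called, 18 became called, 42 uncalled values changed sign and 1 called value reversed. That value was *Pla2g4a* in PIC against control, at -0.098 (FDR = 0.0200) under total library size, a scaling that moved the median of all tested genes by -0.217 in this comparison, by -0.129 in PIC against LPS and by -0.148 in PIC+TBHQ against control. It was positive in every other setting, but these used TMM, other size factors or the FPKM. All of these raise the PIC libraries against the control relative to the library total, so they do not decide the direction.

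A |log2FC| above 1 required beside FDR 0.05 lowered the number of genes called in each of the 8 comparisons. TBHQ alone kept 1 of its 5 genes, LPS 4 of 7, and PIC 6 of 9. PIC against LPS kept 2 of 4, and PIC+TBHQ against LPS+TBHQ 1 of 2. PIC+TBHQ against PIC kept 2 of 3 and lost *Alox5ap*. LPS+TBHQ against LPS kept 0 of 3, and the difference of TBHQ effects 0 of 2. In these last 2 *Ptgs2* and the other genes changed by less. At FDR 0.01 the difference of TBHQ effects gave 1 gene, *Ptgs2*. With the study's limit on |log2FC| lowered from 2 to 1, its threshold was passed by 4 genes with LPS in place of 2, and by 5 with PIC in place of 3. Shares of all tested genes at these changed limits are not given here, so the counts cannot be set against them.

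In limma on FPKM only 5 of the 10 genes had a mean of at least 1 FPKM and were tested. With either pseudocount 5 were called with PIC in place of 9, 1 passed the study's threshold with LPS in place of 2, and 1 was called for the difference of TBHQ effects. With PIC 1 passed the study's threshold at a pseudocount of 1 and 2 at a pseudocount of 0.1, in place of 3. *Alox5* was not tested with either, and *Ptges* was lost with a pseudocount of 1, which shrinks its change. Under total library size the difference of TBHQ effects gave 1 gene, and the cause was not tested.

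Leaving out each library in turn gave 1 to 2 genes for the difference of TBHQ effects, 4 to 5 with TBHQ alone, 7 with LPS, 8 to 9 with PIC, 2 to 4 for LPS+TBHQ against LPS, 3 to 4 for PIC+TBHQ against PIC, 3 to 4 for PIC against LPS and 2 for PIC+TBHQ against LPS+TBHQ, and the study's threshold was passed by 2 with LPS and 3 to 4 with PIC. With the replicate number as a replicate block, the counts were 5 with TBHQ alone, 7 with LPS, 9 with PIC, 3 and 3 with TBHQ before LPS and PIC, and 2 for the difference, as without it. No pairing by replicate number was visible: residuals of libraries with the same number correlated with a median r of 0.0023 over 45 pairs, and 6 of 18 libraries correlated best with their own number. Whether samples of the same number were handled together is not stated, and these correlations cannot settle it. Depth limits *Tbxas1*, *Ltc4s*, *Ptgs1* and, in stimulated cells, *Alox5*, and a p that misses the threshold does not show that values did not differ.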
